A study of Mus musculus with 6 samples.

Results

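Ccny, Tlk1, Gpr65 and Fnip1 are 4 genes of separate signalling routes whose reads were lower in LPS-treated than in untreated macrophage libraries. They were selected on that difference in these same libraries, so their LPS values are given here as a description, with no test. They make up 4 of the 56262 gene identifiers in the count tables, of which 964 had a read in any library and 298 had 10 or more reads in all. In GENCODE M21 (GRCm38, the mm10 build), Ccny (ENSMUSG00000024286.8) spans bases 9312304 to 9450154 of chromosome 18, minus strand. Tlk1 (ENSMUSG00000041997.16) spans bases 70712407 to 70825728 of chromosome 2, minus strand. Gpr65 (ENSMUSG00000021886.7) spans bases 98268635 to 98276644 of chromosome 12 and Fnip1 (ENSMUSG00000035992.15) bases 54438199 to 54518235 of chromosome 11, both on the plus strand. The annotation calls all 4 protein-coding. Each overlaps 1 other annotated gene (AC161530.1, Gorasp2, Gm47566 and Gm24198), and those overlapping genes had 0 reads.

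The libraries came from BMDMs, which are macrophages grown in culture from bone marrow, here that of 7-week-old female C57BL/6J mice. The mice were Tut7-/- or wild type. In the Tut7-/- mice, CRISPR/Cas9 with guides in a pair of introns removed part of Tut7, whose product, terminal uridyltransferase 7, extends RNA 3′ ends with uridines. For both genotypes, progenitors were differentiated in L929-conditioned medium and kept in M-CSF, and the cells were left untreated (Ctrl) or given lipopolysaccharide (LPS), a bacterial cell wall component sensed through Toll-like receptor 4, for 2 h or 4 h. There were 6 gene-specific TAIL-seq libraries, 1 for each genotype and time. The assay joins a linker to RNA 3′ ends and amplifies chosen transcripts by PCR with gene-specific primers. The study's methods give such primers for Zc3h12a and Il6 and name none for the 4 genes. Reads of the 4 genes thus came beside those of the chosen transcripts, and why they were amplified was not tested. Each count belongs to an amplified pool and is not a level in the cell. Fewer cells and less RNA of a gene per cell cannot be told apart in such libraries. Without a replicate, the 95% intervals below compare single libraries and cover counting error only, and PCR reads are not independent molecules.

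The 4 proteins act in different routes. Cyclin Y, the product of Ccny, is a membrane-anchored cyclin that brings cyclin-dependent kinases such as CDK14 to the plasma membrane, where the Wnt co-receptor LRP6 is phosphorylated. Tousled-like kinase 1, from Tlk1, is a nuclear kinase that phosphorylates the histone chaperone ASF1 during chromatin assembly. GPR65 is a proton-sensing receptor that couples to Gs and raises cyclic AMP in acid surroundings, and it is found mainly on leukocytes. Folliculin-interacting protein 1, from Fnip1, binds folliculin and AMP-activated protein kinase and takes part in the lysosomal control of mTORC1 and the transcription factors TFEB and TFE3.

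In this assay the linker joins RNA 3′ ends after any tail added there. The last 30 bases of the longest annotated protein-coding transcript, before any tail, are shown for the 3 genes Tlk1, Gpr65 and Fnip1. They were taken from GENCODE M21 transcripts in mm10, run 5′ to 3′ on the gene's own strand, and lie at the very end of the last exon, in the 3′ untranslated region. Capitals mark the canonical polyadenylation signal AATAAA, searched on the transcript strand only.
Tlk1 (chr2:70712407-70712436, minus strand): agtAATAAAcaatgacagtaaaaatgtaaa
Gpr65 (chr12:98276615-98276644, plus strand): aagtaaatggattttgtattttggtcttga
Fnip1 (chr11:54518206-54518235, plus strand): atttgtgcAATAAAcactcatgtcaatttg
The hexamer began 27 bases before the end in Tlk1 and 22 bases before it in Fnip1. In Gpr65 the nearest AATAAA began 1324 bases before the end, so these letters were not in the window. Of the 254 protein-coding genes with 10 or more reads here, 54.7% held AATAAA in their last 30 bases, against 51.3% of all 21901. A match or its absence is a description of the annotated end, and the deposited counts do not give the end that was read.

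Library totals ran between 21408 and 56718 reads. The 5 genes with the most reads took 90.5% to 93.5% of the 4 LPS libraries, against 75.7% of the Tut7-/- Ctrl and 78.8% of the wild-type Ctrl library. By construction, the summed share of all other genes is smaller where those few genes take more. Ccny itself ranked 4 of 401 genes in the wild-type and 4 of 376 in the Tut7-/- Ctrl library, so the top 5 there included it. In the LPS libraries it ranked between 11 and 41. Tut7 had 0 reads in all 6 libraries, so the genotype labels could not be checked on it. Of 11 macrophage markers, 1 had a read (Lyz2, with 2 reads in the wild-type LPS 2 h library), and the defining markers Adgre1, Csf1r and Cd68 were at 0. None of the 24 markers of neutrophils, dendritic cells, B cells, T cells, erythroid cells and fibroblasts had a read. The labelled cell type therefore could not be checked on these amplified pools.

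Together the 4 genes held a small share of every library, and a smaller one after LPS in both genotypes. In Tut7-/- cells they took 4.62% of the Ctrl reads, 0.320% of the LPS 2 h reads and 0.278% of the LPS 4 h reads. In wild-type cells they took 4.49%, 0.332% and 0.109% of the Ctrl, LPS 2 h and LPS 4 h reads. The 95% intervals of the 4 h shares were 0.231% to 0.332% in Tut7-/- and 0.0838% to 0.140% in wild type and did not overlap. Ccny supplied most of that difference.

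Ccny, the cyclin gene, had the most reads of the 4 in Ctrl cells. In Tut7-/- libraries it had 582 reads in Ctrl, 59 at LPS 2 h and 84 at LPS 4 h, which is 272, 10.6 and 19.3 reads per 10000. In wild-type libraries it had 716, 28 and 14 reads at Ctrl, LPS 2 h and LPS 4 h, which is 275, 6.27 and 2.47 per 10000. The untreated libraries were thus alike, and the genotypes separated after LPS, when the Tut7-/- share was higher at 4 h than at 2 h and the wild-type share was lower.

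Tlk1, the chromatin assembly kinase gene, followed nearly the same course in both genotypes. In Tut7-/- libraries it had 255 reads in Ctrl, 97 at 2 h and 35 at 4 h (119, 17.3 and 8.04 per 10000). In wild-type libraries it had 351 reads in Ctrl, 89 at 2 h and 44 at 4 h (135, 19.9 and 7.76 per 10000). At every time the intervals of the genotypes' shares overlapped, and within each genotype the intervals of the 3 times did not.

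Gpr65, the proton sensor gene, nearly left the read pool by 4 h. In Tut7-/- libraries it had 66, 23 and 2 reads at Ctrl, 2 h and 4 h (30.8, 4.11 and 0.459 per 10000). In wild-type libraries it had 72, 31 and 4 reads at Ctrl, 2 h and 4 h (27.7, 6.95 and 0.705 per 10000). The 4 h counts are too low to compare genotypes, with intervals of 0.0556 to 1.66 per 10000 in Tut7-/- and 0.192 to 1.81 in wild type.

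Fnip1, the folliculin partner gene, was read only in untreated cells. It had 85 reads in Tut7-/- Ctrl and 30 in wild-type Ctrl (39.7 and 11.5 per 10000) and 0 reads in each of the 4 LPS libraries. A count of 0 allows 3 reads, a share of up to 0.537 and 0.689 per 10000 in the Tut7-/- LPS 2 h and 4 h libraries and up to 0.672 and 0.529 in the wild-type ones. Fnip1 was below detection in LPS-treated cells of either genotype at this depth.

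**Figure D1:**
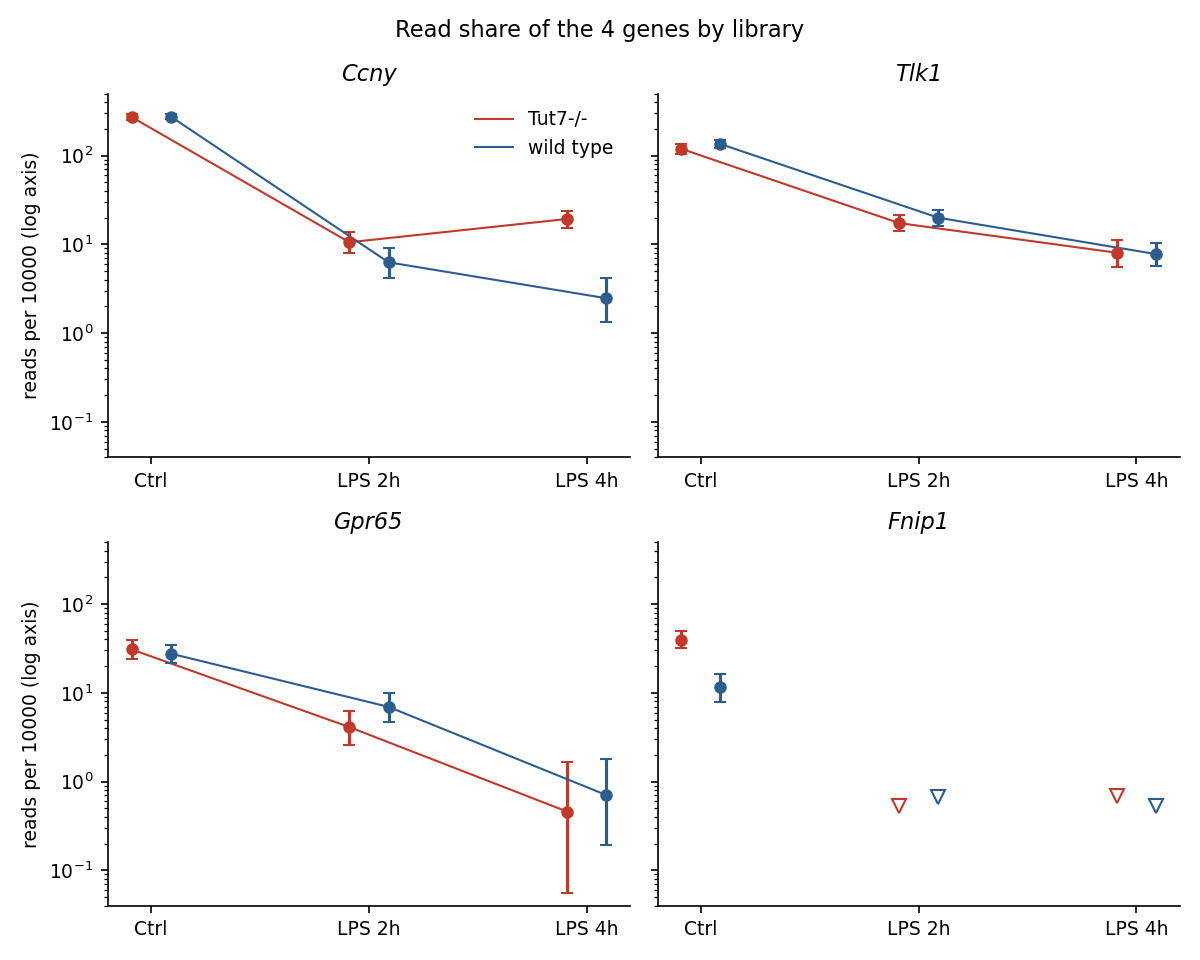
Reads per 10000 of Ccny, Tlk1, Gpr65 and Fnip1 (log axis) at Ctrl, LPS 2h and LPS 4h in the Tut7-/- (red) and wild-type (blue) library of each time, with exact 95% intervals as bars. Open triangles give the share that 0 reads allow (3 reads), and the Ccny points at 4 h (19.3 in Tut7-/- and 2.47 in wild type) stand apart while those of Tlk1 (8.04 and 7.76) lie together.

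The fall was set out per genotype as the ratio of library shares, LPS over Ctrl. Ccny at LPS was 0.0388 times its Ctrl share at 2 h and 0.0710 times at 4 h in Tut7-/- cells (intervals 0.0292 to 0.0508 and 0.0558 to 0.0893). In wild-type cells it was 0.0228 times at 2 h and 0.00897 times at 4 h (0.0151 to 0.0333 and 0.00488 to 0.0152). On this scale the wild-type fall was deeper at both times.

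Tlk1 was 0.146 and 0.0675 times its Ctrl share at 2 h and 4 h in Tut7-/- cells, and 0.148 and 0.0575 times in wild-type cells. Gpr65 was 0.133 and 0.0149 times its Ctrl share at 2 h and 4 h in Tut7-/- cells, and 0.251 and 0.0255 times in wild-type cells. Counted against the floor of 3 reads in the LPS library, Fnip1 was at least 74-fold lower at 2 h and at least 57.6-fold lower at 4 h in Tut7-/- cells, and at least 17.1-fold and 21.8-fold lower in wild-type cells. The larger bounds in Tut7-/- go with its larger Ctrl count.

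All 4 genes had an interval wholly below 0 on the log2 scale in all 4 LPS comparisons, which the choice of the genes uses and which says little about them, since most genes did. Of the genes that reached 10 reads in a pair, 72.4% of 170 at 2 h and 75.8% of 157 at 4 h had such an interval in Tut7-/- cells. In wild-type cells these were 64.3% of 154 at 2 h and 67.5% of 151 at 4 h. The median gene had a log2 ratio of -3.02 at 2 h and -3.72 at 4 h in Tut7-/- cells, and of -2.66 and -3.82 in wild-type cells. Among the 34 to 37 genes that reached 50 reads in a pair, where fewer values are set by a count near 0, the median was -2.28 at 2 h and -2.39 at 4 h in Tut7-/- cells and -2.21 and -3.29 in wild-type cells.

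**Figure D2:**
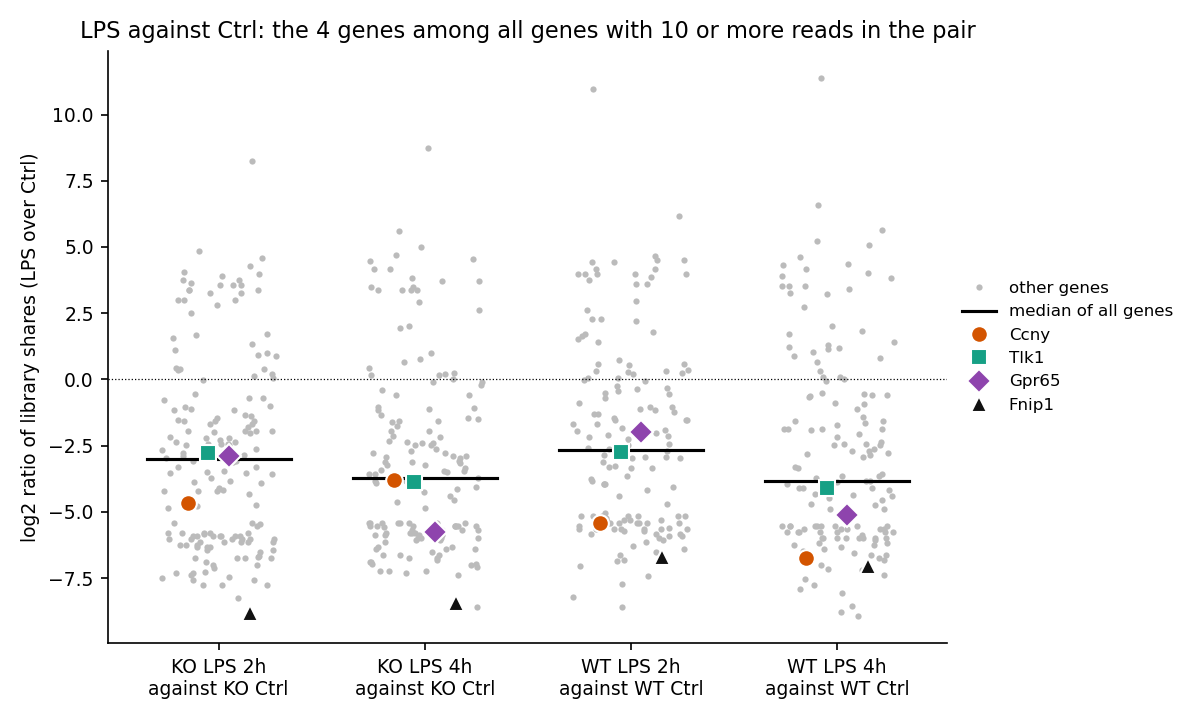
Log2 ratio of library shares, LPS over Ctrl, for every gene that reached 10 reads in its pair (grey points), with the median gene as a black bar and the 4 genes as coloured marks, for the 2 Tut7-/- and then the 2 wild-type comparisons. Fnip1 sits at the low edge, Tlk1 on the median in all 4, and Ccny below the median in all 4, by the least in Tut7-/- cells at 4 h (-3.81 against a median of -3.72).

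Placed among those genes, the 4 members differed from each other. Counting from the lowest log2 ratio, Fnip1 ranked 1 of 170 and 2 of 157 at 2 h and 4 h in Tut7-/- cells, and 8 of 154 and 11 of 151 in wild-type cells, with its position set by the pseudocount of 0.5 read. Ccny ranked 64 and 78 at 2 h and 4 h in Tut7-/- cells and 32 and 14 in wild-type cells. Tlk1 ranked between 68 and 92 in the 4 comparisons, in the middle of the list each time. Gpr65 ranked 88 at 2 h in both genotypes, and 41 in Tut7-/- and 57 in wild-type cells at 4 h.

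To see whether the fall outlasts other ways of scaling a library, the ratios were recomputed under 5 of them. The library size without Zc3h12a and Il6, the primed target genes of the study, raised every LPS log2 ratio by 0.26 to 0.60. TMM factors raised them by 1.71 to 2.38, DESeq2 size factors by 1.61 to 2.41, and the library size without the 10 most abundant genes, of which Ccny is 1, by 2.09 to 2.49. The last scaling set each gene against the median of all genes tested in the pair. Since a scaling moves all genes of a pair by 1 amount, it changes the size of a fall and never the order of the genes. The DESeq2 size factors rest on the 49 genes with reads in every library, Ccny, Tlk1 and Gpr65 among them.

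The share of all genes with an interval below 0 moved with these scalings. At 2 h and 4 h in Tut7-/- cells it was 65.3% and 72.6% without Zc3h12a and Il6, 47.6% and 55.4% with TMM factors, and 42.9% and 54.1% with DESeq2 size factors. Leaving out the 10 most abundant genes gave 43.5% and 38.2%, and setting genes against the median gene gave 24.1% and 12.1%. In wild-type cells at 2 h and 4 h it was 59.7% and 66.9% without Zc3h12a and Il6, 46.1% and 43.0% with TMM factors, and 48.1% and 45.7% with DESeq2 size factors. Leaving out the 10 most abundant genes gave 38.3% and 37.7%, and the median gene gave 18.2% and 10.6%. The 4 genes are read against these shares below, again as a description.

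Ccny and Fnip1 kept a fall under nearly all of these scalings. The log2 ratio of Ccny in Tut7-/- cells lay between -4.08 and -2.27 at 2 h and between -3.40 and -1.40 at 4 h over the 4 scalings by a library size or factor, and was -1.66 at 2 h relative to the median gene. In wild-type cells it lay between -4.83 and -3.34 at 2 h and between -6.49 and -4.26 at 4 h, and was -2.77 and -2.93 relative to the median gene. The exception was Tut7-/- at 4 h relative to the median gene, where Ccny had a log2 ratio of -0.09 with an interval of -0.45 to 0.23. Against the median of the genes that reached 50 reads it was at -1.42 there. The bound for Fnip1, with the Ctrl count taken as exact, stayed at 10.9-fold lower or more in Tut7-/- cells and at 3.89-fold lower or more in wild-type cells. Under the same 4 scalings the upper limit of its interval reached a ratio of 0.116 in Tut7-/- cells and 0.337 in wild-type cells. Its interval was also below 0 relative to the median gene in all 4 comparisons, with an upper limit of -0.24 in wild-type cells at 4 h, the nearest of them to 0.

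Tlk1 and Gpr65 depended more on the scaling. Tlk1 kept an interval below 0 under the 4 scalings by a library size or factor, but in Tut7-/- cells at 2 h its log2 ratio was only -0.37 with DESeq2 size factors (interval -0.72 to -0.03) and -0.40 without the 10 most abundant genes (-0.75 to -0.06). Relative to the median gene it was 0.25 and -0.15 at 2 h and 4 h in Tut7-/- cells and -0.09 and -0.29 in wild-type cells, and all 4 intervals held 0. Against the median of the genes that reached 50 reads, an alternative added after the values were seen, it was lower, at -0.49 and -1.48 at 2 h and 4 h in Tut7-/- cells and -0.54 and -0.82 in wild-type cells. The fall of Tlk1 beyond that of a typical gene thus depended on which genes set the median.

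For Gpr65 the early and the late time differed. At 2 h its log2 ratio in Tut7-/- cells was -0.92 with TMM factors, but -0.51 once the 10 most abundant genes were left out and -0.48 with DESeq2 size factors, and both of these intervals held 0. In wild-type cells at 2 h it was -0.27 with TMM factors and -0.37 with DESeq2 size factors, both with an interval that held 0, and 0.11 once the 10 most abundant genes were left out. Relative to the median gene Gpr65 was at 0.13 in Tut7-/- and at 0.68 in wild-type cells at 2 h, and the wild-type interval (0.01 to 1.29) lay above 0. Against the median of the genes that reached 50 reads it was at -0.60 in Tut7-/- and at 0.23 in wild-type cells at 2 h. At 4 h it was below 0 under every scaling in both genotypes, and still at -2.04 in Tut7-/- and -1.32 in wild-type cells relative to the median gene, on 2 and 4 reads.

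**Figure D3:**
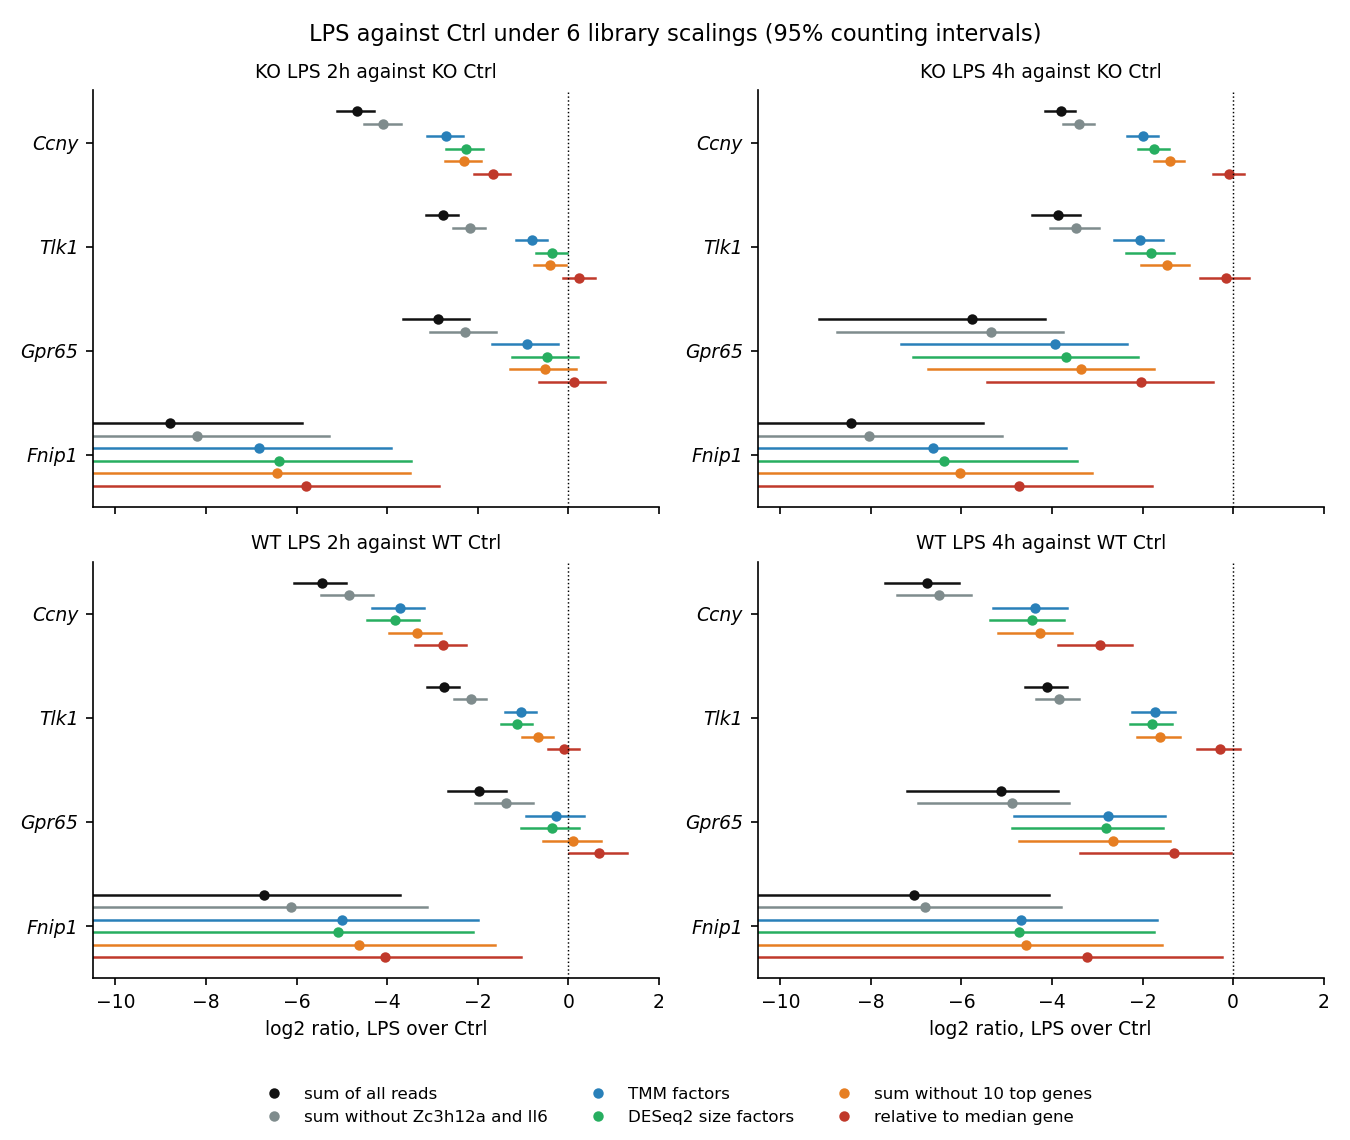
Log2 ratio of LPS over Ctrl for the 4 genes under 6 library scalings (colours), with exact 95% intervals as lines, for Tut7-/- (above) and wild-type cells (below) at 2 h and 4 h. Lines that reach the left edge have no lower limit because the LPS library held 0 reads. The intervals of Ccny and Fnip1 lie left of 0 except that of Ccny relative to the median gene in Tut7-/- cells at 4 h (-0.09), while Tlk1 and, at 2 h, Gpr65 reach 0.

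Ratios between members inside a library need no scaling at all, and they show how the 4 genes parted. They are compared between libraries and say nothing of relative expression. In Tut7-/- cells there were 2.28 Ccny reads per Tlk1 read in Ctrl (1.97 to 2.65), 0.608 at 2 h (0.432 to 0.849) and 2.40 at 4 h (1.60 to 3.67). In wild-type cells the ratio was 2.04 in Ctrl (1.79 to 2.32), 0.315 at 2 h (0.198 to 0.486) and 0.318 at 4 h (0.161 to 0.592). Relative to Tlk1, Ccny was therefore lower at 2 h in both genotypes. At 4 h the ratio in Tut7-/- cells was within counting error of its Ctrl ratio, and in wild-type cells it was as low as at 2 h.

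Beside it, the ratio of Tlk1 to Gpr65 was less well determined at 4 h. There were 3.86 Tlk1 reads per Gpr65 read in Tut7-/- Ctrl, 4.22 at 2 h and 17.5 at 4 h (4.5 to 150.2). In wild-type cells there were 4.88 in Ctrl, 2.87 at 2 h and 11.0 at 4 h (4.00 to 42.2). Both 4 h intervals are wide because they rest on 2 and 4 Gpr65 reads, and they overlap the Ctrl intervals of 2.94 to 5.15 in Tut7-/- and 3.77 to 6.37 in wild-type cells. In Ctrl libraries there were 0.333 Fnip1 reads per Tlk1 read in Tut7-/- (0.258 to 0.428) against 0.0855 in wild type (0.0568 to 0.124).

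**Figure D4:**
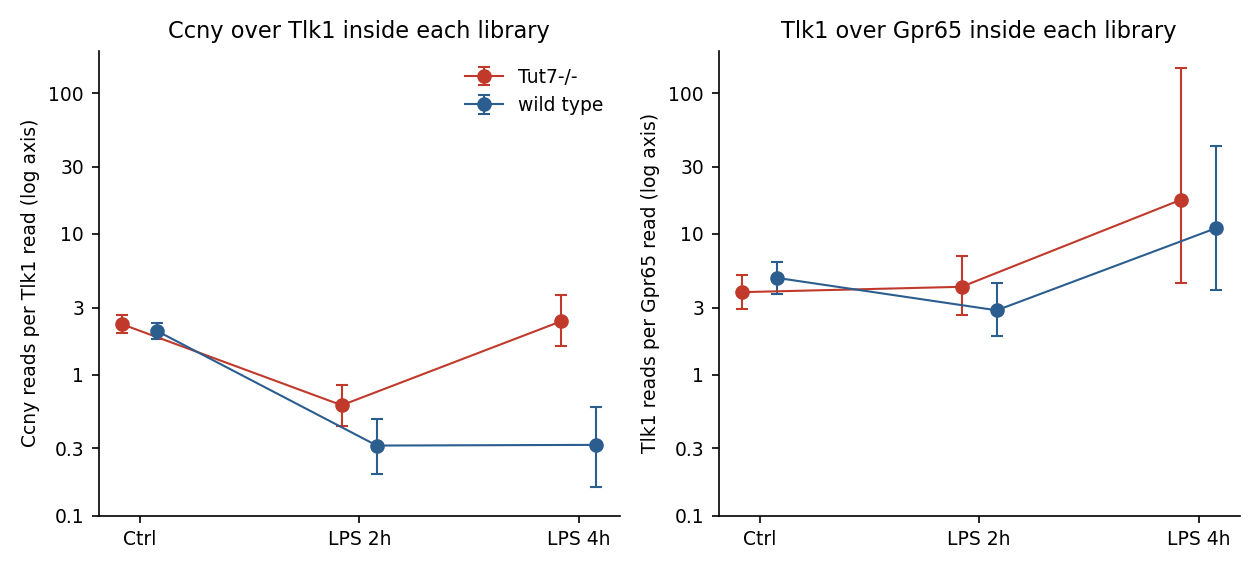
Reads of Ccny per Tlk1 read (left) and of Tlk1 per Gpr65 read (right), both on log axes, inside each Tut7-/- (red) and wild-type (blue) library at Ctrl, LPS 2h and LPS 4h, with exact 95% intervals. The Ccny ratio at 4 h was 2.40 in Tut7-/- and 0.318 in wild type, and the right-hand ratio at 4 h (17.5 in Tut7-/- and 11.0 in wild type) has intervals that overlap those of Ctrl.

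The knockout was then set against wild type at each time, a contrast the choice of the genes did not use. In Ctrl cells, Ccny, Tlk1 and Gpr65 did not differ beyond counting error on the scale of all reads, and Fnip1 was higher in Tut7-/-. The fold of Tut7-/- over wild type was 0.988 for Ccny (0.884 to 1.10), 0.883 for Tlk1 (0.749 to 1.04) and 1.11 for Gpr65 (0.786 to 1.58). Fnip1 was 3.44-fold higher (2.25 to 5.41), on 85 against 30 reads. Its fold lay between 2.83 and 3.19 under the other scalings, with every interval above 1. Of 191 genes, 38.7% had an interval above 0 and 26.2% below 0 in this pair, so a difference of this kind was common.

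The small Ctrl differences of Ccny and Tlk1 depended on the scaling. The interval of Tlk1 lay below 0 under every scaling except that of all reads. That of Ccny lay below 0 under the same ones, save the one without Zc3h12a and Il6 (-0.29 to 0.03). With TMM factors, for example, the log2 ratio was -0.23 for Ccny (interval -0.39 to -0.07) and -0.40 for Tlk1 (-0.63 to -0.16), and relative to the median gene it was -0.30 and -0.46. Gpr65 lay between -0.12 and 0.16 with an interval that held 0 throughout.

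At LPS 2 h Ccny was 1.68-fold higher in Tut7-/- (1.06 to 2.74), on 59 against 28 reads. With DESeq2 size factors it was 2.56-fold higher (1.61 to 4.18), and without Zc3h12a and Il6 1.56-fold, where the interval (0.977 to 2.53) held 1. The other scalings gave 1.73 to 1.81-fold, with intervals above 1. Tlk1 was at 0.870-fold (0.646 to 1.17) and Gpr65 at 0.592-fold (0.330 to 1.05), or 0.548-fold (0.305 to 0.971) without Zc3h12a and Il6 and 0.903-fold (0.503 to 1.60) with DESeq2 size factors. Fnip1 had 0 reads in both. Of 115 genes, 28.7% were higher and 33.9% lower in Tut7-/- at this time.

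At LPS 4 h only Ccny and Tlk1 had enough reads to compare, and they stood apart. Ccny was 7.82-fold higher in Tut7-/- (4.41 to 14.9), on 84 against 14 reads. Under the other 5 scalings the fold was 4.56 with TMM factors, 5.77 with DESeq2 size factors, 6.00 relative to the median gene, 6.28 without the 10 most abundant genes and 8.0 without Zc3h12a and Il6, and each interval lay above 1. Tlk1 was at 1.04-fold (0.645 to 1.65), and at 0.604-fold with TMM factors (0.376 to 0.963). Gpr65 had 2 against 4 reads and was not compared, and Fnip1 had 0 in both. Of 97 genes, 41.2% were higher and 28.9% lower in Tut7-/-, so Ccny was 1 of many genes with such an interval.

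**Figure D5:**
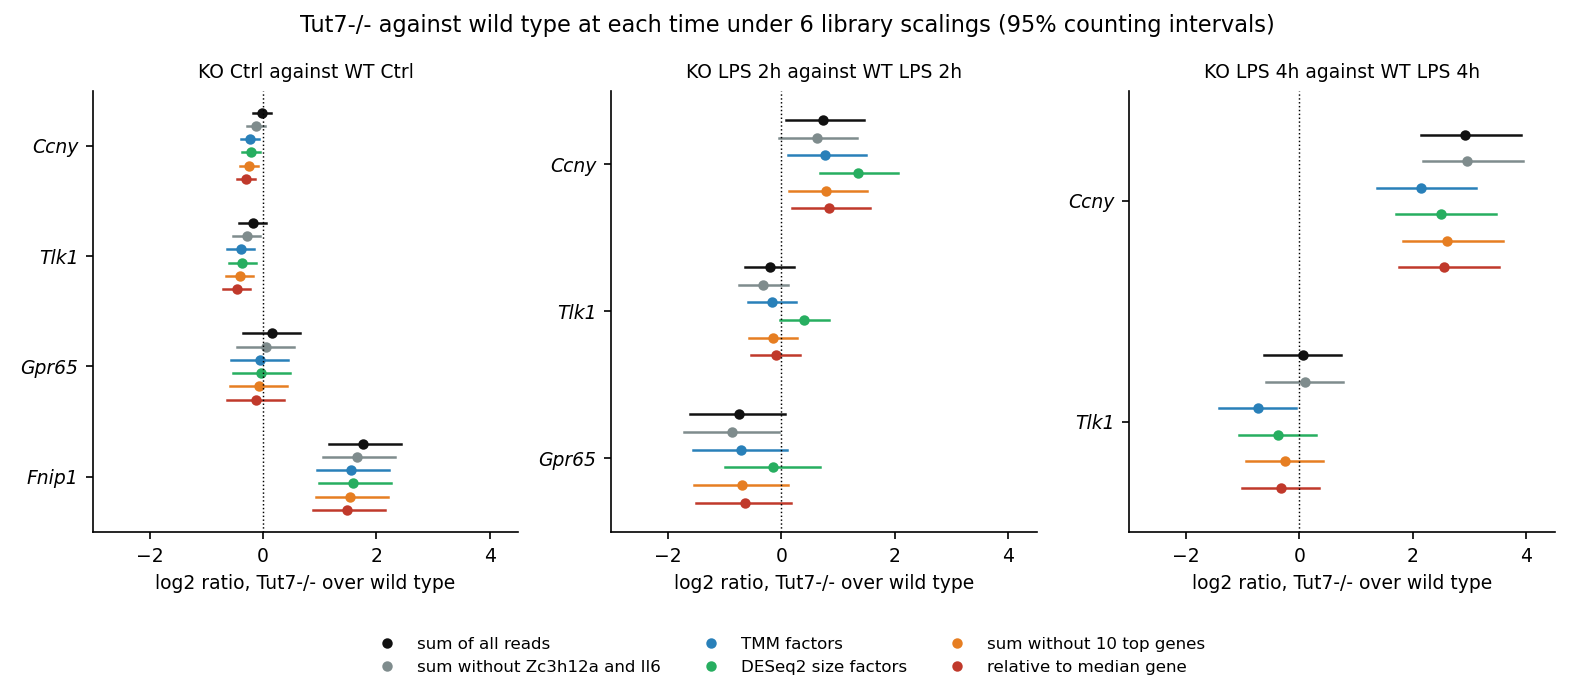
Log2 ratio of Tut7-/- over wild type for members that reached 10 reads in the pair, in Ctrl, LPS 2h and LPS 4h libraries, under 6 library scalings (colours) with exact 95% intervals as lines. Fnip1 in Ctrl (1.77 on the scale of all reads) and Ccny at 4 h (2.92) lie right of 0 under every scaling shown.

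The LPS response itself was compared between genotypes as the ratio of the LPS over Ctrl fold in Tut7-/- to that in wild type. For Ccny this ratio was 1.70 at 2 h (1.05 to 2.81) and 7.90 at 4 h (4.40 to 15.2). Under the other scalings it lay between 1.70 and 2.95 at 2 h, the highest with DESeq2 size factors (1.83 to 4.88), and between 5.35 and 8.74 at 4 h. For Tlk1 it was 0.984 at 2 h (0.698 to 1.39) and 1.17 at 4 h (0.709 to 1.93), although it reached 1.71 at 2 h with DESeq2 size factors (1.21 to 2.41). For Gpr65 it was 0.532 at 2 h (0.267 to 1.05) and 0.587 at 4 h (0.0515 to 4.25), an interval too wide to show a difference of either sign. No ratio could be formed for Fnip1, whose LPS counts were 0.

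The 2 LPS times were also set against each other, a comparison added after the values were seen. In Tut7-/- cells the Ccny share at 4 h was 1.83-fold that at 2 h (1.30 to 2.60), and the interval lay above 1 under every scaling. In wild-type cells it was 0.393-fold (0.191 to 0.773), with an interval that held 1 under all the other scalings except the one without Zc3h12a and Il6. Tlk1 at 4 h was 0.463-fold its 2 h share in Tut7-/- and 0.389-fold in wild-type cells, and Gpr65 0.112-fold and 0.102-fold. Of 107 genes in Tut7-/- cells, 31.8% were higher and 38.3% lower at 4 h, and of 103 in wild-type cells 45.6% were lower.

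A model of all 6 libraries with LPS time and genotype as additive terms gave the only test with residual degrees of freedom. By edgeR's quasi-likelihood test none of the 4 genes was called different between genotypes. With 2 residual degrees of freedom and a common dispersion of 0.859, the lack of a call does not show equal shares. The genotype term, Tut7-/- over wild type, was 1.14 ± 0.51 (SE) on the log2 scale for Ccny, with an unadjusted p of 0.051 and a Benjamini-Hochberg adjusted p of 0.964. Ccny was higher in Tut7-/- at 2 of the 3 times. The term was -0.37 ± 0.72 for Gpr65 and -0.11 ± 0.35 for Tlk1. For Fnip1 it was 1.45 ± 1.33, which rests on the Ctrl pair alone, since its LPS counts were 0. That term therefore cannot test Fnip1 beyond this 1 pair. Over all 115 genes tested, 0 (0%) had an adjusted p under 0.05, and 2 had an unadjusted p under 0.05. By the Wald test of DESeq2, 0 genes were called and 8 had an unadjusted p under 0.05, and by limma-voom 0 were called and 1 had.

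The Ccny term rested on which library was in the fit. It was 1.83 without the Tut7-/- Ctrl library and 1.82 without the wild-type Ctrl library. Each of these fits leaves 1 Ctrl library, which then says nothing of genotype. Both thus rest on the same 4 LPS libraries and are not separate results. Without either of the 4 h libraries the term was 0.34. The genotype term of Ccny thus leaned most on the 4 h pair, where there is 1 library of each genotype. In the 2 h pair Ccny was also higher in Tut7-/-, at 1.68-fold (1.06 to 2.74). The LPS terms of the same model, given with no test, were -5.17 at 2 h and -5.12 at 4 h for Ccny, -2.77 and -4.0 for Tlk1, and -2.45 and -5.62 for Gpr65, beside a median gene at -2.45 and -3.24. Those of Fnip1 depend on the prior count and are not given.

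The members' profiles over the 6 libraries were compared with those of 71 genes with 50 or more reads, by the Euclidean distance between centred log2 shares, in which 0 means the same course. Among themselves, Tlk1 and Gpr65 were the nearest pair (1.99) and Gpr65 and Fnip1 the farthest (5.50). The gene nearest to Ccny was Lpl, which encodes lipoprotein lipase, at a distance of 1.63. Lpl had 349, 50 and 37 reads at Ctrl, 2 h and 4 h in Tut7-/- and 307, 29 and 22 in wild-type libraries. Next came Dennd4c, a guanine nucleotide exchange factor for Rab proteins, at 2.16 and the long noncoding RNA Neat1 at 2.37.

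Nearest to Tlk1 were the mitochondrial 16S rRNA gene mt-Rnr2 (1.09), Mfhas1 (1.29) and Vim, the gene of the intermediate filament vimentin (1.41). Vim had 2097, 798 and 812 reads at Ctrl, 2 h and 4 h in Tut7-/- and 3760, 638 and 620 in wild-type libraries. Nearest to Gpr65 were mt-Atp6 (1.63), which encodes an ATP synthase subunit, the lysosomal protease gene Ctsd (1.93) and mt-Rnr2 (1.99). Nearest to Fnip1 were Cat, the catalase gene (3.44), Fam214a (3.79) and mt-Rnr1 (3.90). Cat had 93, 5 and 0 reads at Ctrl, 2 h and 4 h in Tut7-/- and 100, 3 and 0 in wild-type libraries. These distances rest on 6 points that share their libraries, and no gene was closer to Fnip1 than 3.44.

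The other genes of the 4 routes were almost absent from the pools. Of 61 genes in the lists of cyclin Y partners and the Wnt route, Tousled-like kinases and histone chaperones, proton-sensing receptors and the cyclic AMP route, and the folliculin, AMPK, mTORC1 and TFEB route, 2 had a read in any library. Gsk3b, a kinase of the Wnt route, was 1 of 12 cyclin Y and Wnt genes, with 5 reads in wild-type Ctrl and 0 elsewhere. Pde4b, a phosphodiesterase that degrades cyclic AMP, was 1 of 14 genes of the proton and cyclic AMP list. It had 0, 3 and 0 reads at Ctrl, 2 h and 4 h in Tut7-/- and 0, 2 and 6 in wild-type libraries. None of the 10 genes of the histone chaperone list or of the 25 genes of the folliculin list had a read, the paralogs Tlk2 and Fnip2 included, and the Ccny paralog Ccnyl1 had none either. No gene of these lists reached 10 reads in a pair of libraries, so none was tested in either direction and the routes cannot be described beyond their 4 members at this depth.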

How the data were processed

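Gene-specific TAIL-seq was analysed in 6 mouse BMDM libraries, 1 per genotype and time, grouped by their titles. Each library has a deposited table of raw counts of reads, 1 row per Ensembl gene. The submitters' processing notes name HISAT2 and the mm10 build, so the authors' alignment was made with these. The sources used here do not say which counter and strand setting were used, whether PCR duplicates were removed, or whether a library pools the duplicates that the submitters mention. Il6 read lists were not used here. The 4 genes, the gene lists and the comparisons were chosen with earlier results of these data known.

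Log2 ratios of library shares used a pseudocount of 0.5 read, and genes needed at least 10 reads in the pair. Folds are without the pseudocount. Intervals are exact conditional binomial (Clopper-Pearson) at 95%, and for ratios of folds noncentral hypergeometric (scipy 1.17.1), with no p-value. A fold against 0 reads used a floor of 3 reads per library and took the other count as exact. The additive model was fitted with edgeR 4.0.16 (glmQLFit, glmQLFTest, R 4.3.3) on 115 genes passing filterByExpr. It has 2 residual degrees of freedom and a common dispersion of 0.859, and departures from additivity stand in for the spread between samples. The SE was back-calculated from F. Depth was 21408 to 56718 reads per library. Other scalings were TMM, the size factors of DESeq2 1.42.0, the sum of reads leaving out Zc3h12a and Il6, the sum leaving out the 10 most abundant genes, and the median gene. Other settings were the DESeq2 Wald test, voom (limma 3.58.1), a pseudocount of 2, a minimum of 50 reads or none, and each library left out. The interval and the model were tested on simulated data. Named genes were the 4 members, the 3 genes nearest to each in profile among those with 50 or more reads, and any listed pathway gene with 10 or more reads. Genes with fewer reads are named as exceptions.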

Additional observations from a re-analysis of the deposited data

Results flagged for a closer look

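Ccny moved in opposite directions between the LPS times in the 2 genotypes. The log2 ratio of LPS 4 h over LPS 2 h was 0.87 in Tut7-/- cells (84 against 59 reads) and -1.32 in wild-type cells (14 against 28 reads). Each genotype has 1 library per time, so the difference was not tested beyond counting error, and the wild-type interval held 0 under 4 of the 5 other scalings.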

How the results depend on the processing

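Every scaling, pseudocount and filter tried kept the sign of the LPS log2 ratios of Ccny and Fnip1, but Fnip1 in wild-type cells falls below a minimum of 50 reads and has no value there. For Ccny in Tut7-/- cells at 4 h, the value relative to the median gene was -0.09, with an interval that held 0 (-0.45 to 0.23). Relative to the median gene, Tlk1 (0.25) and Gpr65 (0.13) in Tut7-/- cells at 2 h and Gpr65 in wild-type cells at 2 h (0.68) changed sign, and so did the last (0.11) without the 10 most abundant genes and (0.23) against the median of genes with 50 or more reads, an alternative chosen after seeing the data. Relative to the median gene, 2 of the 4 genes had an interval below 0 in Tut7-/- cells at 2 h and at 4 h, beside 24.1% and 12.1% of all genes. In wild-type cells there were 2 of the 4 at 2 h, beside 18.2%, and 3 of the 4 at 4 h, beside 10.6%. The interval of Gpr65 in wild-type cells at 2 h lay above 0. The genes were chosen on the LPS contrast, so these counts are a description.

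The counts of all genes moved by over 1.5 times as follows. Genes lower at 2 h in Tut7-/- cells were 123, against 81 with TMM factors, 73 with DESeq2 size factors, 74 without the 10 most abundant genes, 41 relative to the median gene, 28 with a minimum of 50 reads and 209 with no filter. At 4 h they were 119, against 60, 19, 28 and 196 under the last 4 of these. In wild-type cells at 2 h they were 99, against 59, 28, 26 and 167, and at 4 h 102, against 65 with TMM factors and 57, 16, 24 and 175 under those 4. For Tut7-/- against wild type with a minimum of 50 reads, higher and lower genes were 11 and 10 in Ctrl (74 and 50 as reported), 7 and 3 at 2 h (33 and 39 as reported) and 12 and 4 at 4 h (40 and 28 as reported). With no filter, 114 were higher in Ctrl, and 51 were higher and 60 lower at 2 h. With DESeq2 size factors, 52 were higher and 23 lower at 2 h. For 4 h over 2 h with that minimum, 11 were higher and 9 lower in Tut7-/- cells (34 and 41 as reported) and 8 and 6 in wild-type cells (27 and 47 as reported), and with no filter 53 were higher in Tut7-/- and 73 lower in wild-type cells. Filters change how many genes are tested, and the cause of the other moves was not tested. The genotype term called 0 genes in the fit of all 6 libraries.

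Scaling by ribosomal protein genes was not run, since it needed 30 such reads in each library and some held as few as 2. No paired analysis was possible because each group has 1 library. A depth of 21408 to 56718 reads limits statements to the most read genes: 0 reads allow a share of 0.529 to 1.40 per 10000. Gpr65 at 4 h is close to that limit and Fnip1 after LPS is under it.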
